A study of Arabidopsis thaliana with 9 samples.

Results

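The autophagy genes described here are the rows of an Arabidopsis thaliana expression table whose gene symbol starts with ATG or APG followed by a digit. The rule finds 38 of 25320 genes. Of these, 33 carry an autophagy annotation. The symbols of the other 5 stand for something else and are described apart. Transcripts were measured in stems and leaves of wild-type seedlings that were 2 weeks old and grown in soil, with 3 libraries in each of 3 groups. The control group was kept at room temperature, or taken before the stress, on day 0. In the cold-once group (day 1) the seedlings spent 6 h at 4 °C followed by 18 h back at room temperature. In the repeated-cold group (day 4) this cycle was run 4 times. A further 6 h at 0 °C is named for the cold treatments, without saying if plants were collected ahead of it, so that step, the cycles and the day cannot be told apart against control. Nothing says that libraries of a group came from separate plants or pools, so the p-values measure the spread between these libraries. The study asks about H3K4me3, a histone mark of active genes, in how plants remember low temperature.

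Autophagy is the delivery of cytoplasm, proteins and organelles to the vacuole inside double-membrane vesicles called autophagosomes. In plants it recycles nutrients in the dark, under starvation and in senescing leaves. A kinase complex around ATG1 starts the process, a lipid kinase complex with ATG6 marks the membrane, and ATG9, ATG2 and the ATG18 proteins bring membrane and lipid to it. ATG8, a small ubiquitin-like protein, is then attached to the lipid phosphatidylethanolamine by a conjugation pathway. On the membrane it binds the receptors that bring in cargo. Vacuolar proteases digest what arrives.

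Values are FPKM, which divide read fragments by gene length and by library size, so levels can be set beside each other per length. Library sizes, worked out from the steps of low FPKM values, were 17.98 to 21.49 M reads. The reads of the genes in the table make up at least 99.97% of each size. These are thus totals over genes, and the number of reads sequenced is not known. All 37 members tested were at 1.41 FPKM or more in every library, and the read counts behind them ran from 38 for ATG12B in its lowest library to 4452 for ATG2484-1 in its highest. ATG18E, a member of the family of lipid-binding ATG18 proteins, could not be tested. It was at 0 in 7 libraries, at 0.12 FPKM in cold once replicate 2 and at 0.34 FPKM in repeated cold replicate 1. A count of 0 allows up to 3 reads, which is 0.140 to 0.167 FPKM for a gene of 1 kb, for counting error only. Leaf markers (RBCS, LHCB, RCA and GLDP1) summed to 31059 FPKM or more in every library and seed markers to at most 0.909 FPKM. Repeated cold replicate 2 stood apart from its group in floral markers, which summed to 28.7 FPKM there against 0.974 and 1.39 FPKM in the other libraries of that group. The control libraries spanned 9.43 to 42.5 FPKM in the same sum and the cold-once libraries 1.81 to 7.70 FPKM. Counts of calls without repeated cold replicate 2 are given beside the counts below.

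Each of the 9 ATG8 genes ends its coding sequence shortly after, or at, a glycine codon. Where codons follow, the protease ATG4 cuts behind this glycine and so exposes the residue by which ATG8 is joined to lipid. The ends of the coding sequences (RefSeq, TAIR10.1, coding strand) are shown because they separate ATG8H and ATG8I from the other ATG8 genes. Capitals mark the glycine codon.

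ATG8A: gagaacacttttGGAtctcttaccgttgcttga
ATG8B: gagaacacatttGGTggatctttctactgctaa
ATG8C: gagaacacctttGGTttggtttaa
ATG8D: gagaacacgttcGGGatcttcttctaa
ATG8E: gagaacacattcGGTgcttcttcaatctaa
ATG8F: gaaaacacatttGGAtttggatctccataa
ATG8G: gaaaacacttttGGAtcgtcaatgacttaa
ATG8H: gagaaaactttcGGCtaa
ATG8I: gagaaaacctttGGTtga

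In ATG8H and ATG8I the glycine codon stands directly before the stop codon, so no residue follows the glycine. In the other 7 genes 2 to 5 codons follow it. ATG8A is listed under its older symbol APG8A in the table.

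All 9 ATG8 genes fell in cold once against control, and all 9 fell in repeated cold against control. Among all 17740 genes tested, 33.6% were called lower in cold once (52.3% in either direction) and 24.9% in repeated cold (39.5% in either direction). A call is a Benjamini-Hochberg adjusted p under 0.05 in limma's moderated test over all genes tested. The median ATG8 change on the log2(FPKM + 1) scale was -1.18 in cold once, against -0.16 over all genes tested. In repeated cold it was -0.82, against -0.10 over all genes tested. Without repeated cold replicate 2 all 9 were again called lower in both comparisons.

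ATG8F (chromosome 4, 9306339 to 9308538, minus strand), the ATG8 gene with the highest level, stood at 81.3, 97.5 and 83.9 FPKM in the control libraries. It stood at 27.9, 31.5 and 30.6 FPKM in cold once and at 40.4, 40.8 and 37.6 FPKM in repeated cold. All libraries of both cold groups lay below all control libraries, and all repeated-cold libraries lay above all cold-once libraries. On the log2(FPKM + 1) scale ATG8F fell by 1.51 ± 0.10 (standard error, n = 3 libraries per group, adjusted p = 6.9e-06 in limma) in cold once and by 1.12 ± 0.10 (adjusted p = 5.66e-05) in repeated cold. Its mean in cold once was 34.2% of the control mean.

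ATG8G (chromosome 3, 22415751 to 22417548, plus strand) had the lowest level of the family. Its control libraries stood at 8.08, 9.15 and 7.999 FPKM, its cold-once libraries at 1.95, 3.02 and 2.11 FPKM, and its repeated-cold libraries at 3.85, 5.48 and 3.75 FPKM. The 3 groups did not overlap, with repeated cold in between. On the log2(FPKM + 1) scale ATG8G fell by 1.497 ± 0.16 (limma adjusted p = 9.11e-05) in cold once, close to the fall of ATG8F. In repeated cold it fell by 0.82 ± 0.16 (adjusted p = 0.0035). By group means the fall in cold once was larger for ATG8G, to 28.1% of the control mean, against 34.2% for ATG8F. In repeated cold the means were 51.8% of control for ATG8G and 45.2% for ATG8F.

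ATG8I (chromosome 3, 5273526 to 5275095, minus strand), with no codon after its glycine, stood at 41.9, 50.3 and 41.9 FPKM in control, at 17.6, 15.8 and 15.4 FPKM in cold once and at 22.7, 25.7 and 15.3 FPKM in repeated cold. Its fall of 1.40 came with an SE of 0.17 (limma adjusted p = 0.000207) in cold once. In repeated cold it fell by 1.07 ± 0.17 (adjusted p = 0.00146), with replicate 3 at the cold-once level. Its gene model overlaps AT3G15578 on the other strand by 183 bases. ATG8H (chromosome 3, 1954990 to 1956397, minus strand), the other gene with a terminal glycine codon, stood at 16.5, 18.3 and 16.2 FPKM in control, at 8.70, 8.50 and 8.70 FPKM in cold once and at 12.3, 9.69 and 8.92 FPKM in repeated cold. It fell by 0.90 ± 0.12 in cold once and by 0.68 ± 0.12 in repeated cold (limma adjusted p = 0.000288 and 0.00208). ATG8I and ATG8H, which share the terminal glycine, lie towards opposite ends of the family's range in cold once.

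ATG8A stood at 57.4, 55.8 and 58.9 FPKM in control, at 26.9, 24.5 and 23.0 FPKM in cold once and at 40.1, 32.5 and 26.0 FPKM in repeated cold. ATG8B stood at 15.2, 14.9 and 15.6 FPKM in control, at 6.44, 5.61 and 5.61 FPKM in cold once and at 7.56, 7.94 and 6.45 FPKM in repeated cold. The mRNAs of ATG8A and ATG8B share a run of 53 identical bases, the longest between any pair of ATG8 genes, so some reads of the pair may not be separable. In both genes the control libraries lay close together and above every library of the cold groups. ATG8A fell by 1.18 ± 0.14 and by 0.80 ± 0.14 and ATG8B by 1.24 ± 0.10 and by 0.97 ± 0.10, in cold once and repeated cold in turn.

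ATG8E stood at 48.7, 62.2 and 46.0 FPKM in control, at 23.0, 28.6 and 30.2 FPKM in cold once and at 28.8, 27.7 and 28.9 FPKM in repeated cold. The groups with cold overlapped each other, and neither reached control. ATG8C stood at 31.6, 43.6 and 31.1 FPKM in control, at 15.7, 20.3 and 18.5 FPKM in cold once and at 20.9, 26.6 and 18.4 FPKM in repeated cold. Replicate 2 was the highest library of each group for ATG8C. ATG8D stood at 23.0, 24.3 and 24.1 FPKM in control, at 10.2, 12.3 and 10.2 FPKM in cold once and at 16.3, 17.8 and 12.1 FPKM in repeated cold. These genes fell by 0.91 ± 0.14 (ATG8E), 0.92 ± 0.17 (ATG8C) and 1.07 ± 0.14 (ATG8D) in cold once, and by 0.84 ± 0.14, 0.67 ± 0.17 and 0.61 ± 0.14 in repeated cold. The call of ATG8C in repeated cold was lost with a floral marker score as covariate (limma adjusted p = 0.0631) and without repeated cold replicate 3 (adjusted p = 0.0521). The other 8 ATG8 genes stayed called in both comparisons under every alternative run.

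**Figure D1:**
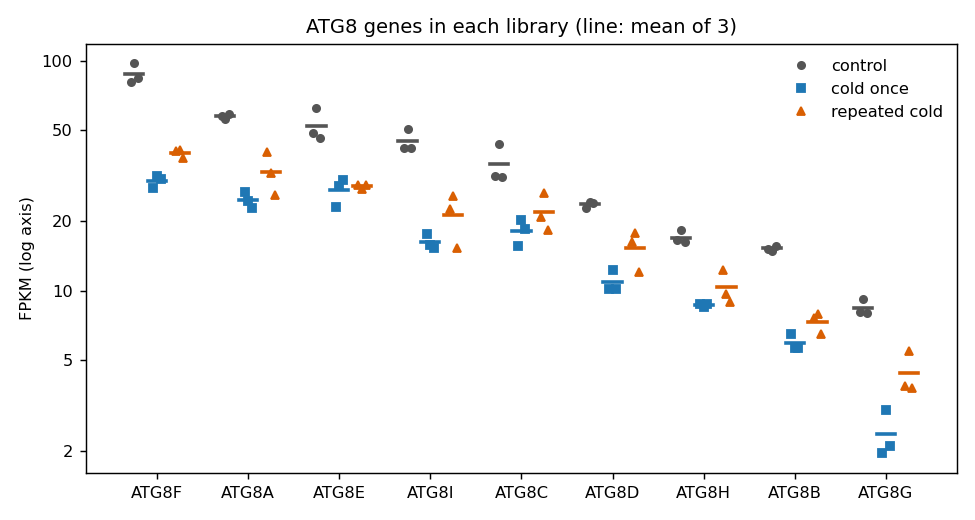
FPKM (log axis) of the 9 ATG8 genes in each of the 9 libraries, ordered by control mean; points are libraries and short lines are means of 3. For every gene the control libraries lie above all libraries of both cold groups, and ATG8F, at 87.6 FPKM in control, is the highest.

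Summed over the 9 genes, the level was 324, 376 and 326 FPKM in control, 138, 150 and 144 FPKM in cold once, and 193, 194 and 157 FPKM in repeated cold. The mean sum was 342 ± 29.6 FPKM (SD, n = 3) in control, 42.2% of that in cold once and 53.1% of it in repeated cold. The make-up of the sum also differed. ATG8F gave 25.6% ± 0.429 (SD, n = 3) of it in control, 20.8% ± 0.561 in cold once and 21.9% ± 1.69 in repeated cold, with every library of the cold groups below every control library. ATG8E gave 15.2% ± 1.22 in control, 18.9% ± 2.17 in cold once and 15.8% ± 2.22 in repeated cold. These shares were not tested. In whole-tissue RNA, fewer cells with a transcript and less transcript per cell cannot be told apart.

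The 250 bases before the annotated start of each gene were searched on both strands for TGACG (the core bound by TGA-type bZIP factors, of which TGA9 is known to act on Arabidopsis autophagy genes), CACGTG (the G-box), CCGAC (the core of the cold element bound by CBF factors) and AAATATCT (the evening element of the clock). None of the 4 motifs contains another. TGA9 itself did not pass the filter on low FPKM and was not tested. Without that filter it was called in cold once (limma adjusted p = 0.0365). TGACG was found before 6 of the 9 ATG8 genes (66.7%), before 10 of the 33 autophagy members (30.3%) and before 18.9% of 25120 genes of the table. Its share was 19.4% among genes tested and 19.2% among genes called lower in cold once, so genes that fell did not carry it more often. CCGAC was found before 2 of 9 ATG8 genes and 12.2% of all genes, CACGTG before 0 of 9 and 6.85%, and AAATATCT before 0 of 9 and 4.89%. The promoters of ATG8F (chr4:9308539-9308788, minus strand, TAIR10.1) and ATG8G (chr3:22415501-22415750, plus strand, TAIR10.1), the genes with the largest changes of the family in cold once, are shown in the direction of transcription, with every match in capitals. A match on the other strand reads CGTCA here.

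ATG8F: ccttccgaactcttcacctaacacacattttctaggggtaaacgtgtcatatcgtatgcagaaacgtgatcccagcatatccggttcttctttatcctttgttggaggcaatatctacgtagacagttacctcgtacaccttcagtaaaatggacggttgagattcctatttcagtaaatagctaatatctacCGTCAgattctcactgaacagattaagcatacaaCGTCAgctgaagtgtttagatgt
ATG8G: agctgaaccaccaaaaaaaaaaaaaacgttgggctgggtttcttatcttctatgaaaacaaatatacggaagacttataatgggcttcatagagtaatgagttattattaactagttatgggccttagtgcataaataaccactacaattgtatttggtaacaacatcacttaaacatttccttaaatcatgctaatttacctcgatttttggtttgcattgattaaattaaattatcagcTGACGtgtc

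ATG8F holds 2 matches, both on the other strand, and ATG8G holds 1 match close to its start. Before ATG8B, ATG8C and ATG8D, which also fell, the search found no TGACG. The matches are a description of the letters and were not tied to binding.

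Among the other core genes, 3 of 4 members of the ATG1 kinase complex fell in cold once, against 33.6% of all genes tested. In repeated cold 1 of 4 fell, where the share is that of all genes tested (24.9%). Without repeated cold replicate 2 the counts were again 3 and 1. The repeated-cold count was 0 without control replicate 1, and 3 without control replicate 2, without repeated cold replicate 1 or with a floral marker score as covariate. ATG1A, a catalytic subunit, stood at 18.7, 14.3 and 16.3 FPKM in control, at 9.17, 7.92 and 8.83 FPKM in cold once and at 14.5, 10.2 and 12.2 FPKM in repeated cold. It fell by 0.85 ± 0.14 in cold once (limma adjusted p = 0.00101). In repeated cold, which overlapped control, the difference of -0.39 ± 0.14 missed the threshold (adjusted p = 0.0524). It was called lower without control replicate 2 (0.0397) or repeated cold replicate 1 (0.0237), with the floral covariate (0.0118), with a pseudocount of 5 (0.0488) and with a minimum FPKM of 5 (0.0452). ATG13B, a regulatory subunit, stood at 4.42, 3.33 and 4.86 FPKM in control, at 1.84, 1.41 and 1.98 FPKM in cold once and at 3.51, 2.09 and 2.81 FPKM in repeated cold. Its mean in cold once was 41.5% of control. On the log2(FPKM + 1) scale it fell by 0.92 ± 0.17 (limma adjusted p = 0.00204). The repeated-cold difference was -0.46 ± 0.17 (adjusted p = 0.0627), called lower without control replicate 2 (0.0389) or repeated cold replicate 1 (0.0328) and with the floral covariate (0.0387).

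ATG1C, another catalytic subunit, stood at 10.6, 8.91 and 9.18 FPKM in control, at 6.30, 5.71 and 5.55 FPKM in cold once and at 7.23, 5.92 and 7.57 FPKM in repeated cold. It fell by 0.62 ± 0.12 (limma adjusted p = 0.00184) and by 0.42 ± 0.12 (adjusted p = 0.0182), and the second call was lost without control replicate 1 (adjusted p = 0.0707). ATG11, a scaffold of the complex, was not called. It stood at 7.06 to 8.96 FPKM in control, 6.97 to 7.26 in cold once and 5.29 to 9.72 in repeated cold, and overlaps AT4G30780 on the other strand by 690 bases. ATG6, the plant Beclin 1 and a subunit of the lipid kinase complex, stood at 16.4, 14.6 and 15.2 FPKM in control, at 11.4, 12.1 and 11.5 FPKM in cold once and at 14.0, 11.6 and 14.1 FPKM in repeated cold. It fell by 0.37 ± 0.10 in cold once (adjusted p = 0.0137), a call lost under median-of-ratios scaling (0.0984), quantile normalization (0.143) and without control replicate 1 (0.0545). The repeated-cold difference of ATG6 was -0.21 ± 0.10 (limma adjusted p = 0.134), called lower with the floral covariate (0.0459).

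Partners of these complexes that carry other names in the table were read by locus. Of 9 such genes, 6 fell in cold once, 4 fell in repeated cold and none was called higher, against 33.6% and 24.9% of all genes tested called lower. Without repeated cold replicate 2 the counts were 6 and 2, and the second was also 2 without control replicate 1 or control replicate 3 and under median-of-ratios scaling or quantile normalization. ATG13A (AT3G49590) stood at 15.3, 11.5 and 13.3 FPKM in control, at 4.14, 4.06 and 4.05 FPKM in cold once and at 6.43, 3.80 and 5.79 FPKM in repeated cold, and fell by 1.49 ± 0.17 and by 1.20 ± 0.17 (limma adjusted p = 0.000113 and 0.000609). ATG101 (AT5G66930), which binds ATG13, stood at 16.1, 19.3 and 17.4 FPKM in control, at 7.87, 8.28 and 7.85 FPKM in cold once and at 10.96, 10.4 and 9.72 FPKM in repeated cold. It fell by 1.04 ± 0.10 and by 0.71 ± 0.10 (adjusted p = 4.03e-05 and 0.000557). VPS34, the lipid kinase itself, fell by 0.78 ± 0.18 in cold once and by 0.57 ± 0.18 in repeated cold (limma adjusted p = 0.0354). The second call was lost in 8 alternatives, among them leaving out control replicate 1 (0.116), control replicate 3 (0.118) or repeated cold replicate 2 (0.0996), with adjusted p from 0.0513 to 0.118. ATG14B (AT4G08540), another gene of the lipid kinase list, fell by 0.74 ± 0.16 in cold once and by 0.49 ± 0.16 in repeated cold (limma adjusted p = 0.0329). Its second call was lost without control replicate 1 (0.107), control replicate 3 (0.0834) or repeated cold replicate 2 (0.0501) and under median-of-ratios scaling (0.0631) and quantile normalization (0.0585).

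The group of ATG9, ATG2 and the ATG18 genes held the most members without a call. Of 9 tested, 4 fell in cold once and 3 in repeated cold. These shares (44.4% and 33.3%) are near those of all genes tested called lower (33.6% and 24.9%). Without repeated cold replicate 2 the counts were 4 and 2. The cold-once count was 2 without control replicate 1, 1 without control replicate 3, 2 under median-of-ratios scaling and 1 under quantile normalization. The repeated-cold count was 1 without control replicate 3 and under quantile normalization. ATG18A (chromosome 3, 23218610 to 23221243, minus strand), which binds the lipid phosphatidylinositol 3-phosphate and is needed for autophagosome formation in Arabidopsis, had the largest change of the group. It stood at 20.5, 18.5 and 21.2 FPKM in control, at 8.57, 8.36 and 8.44 FPKM in cold once and at 10.1, 7.03 and 10.4 FPKM in repeated cold. It fell by 1.15 ± 0.14 (limma adjusted p = 0.000158) and by 1.07 ± 0.14 (adjusted p = 0.000395).

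ATG18C stood at 6.02, 5.84 and 6.35 FPKM in control, at 4.30, 4.02 and 4.32 FPKM in cold once and at 4.53, 4.62 and 3.20 FPKM in repeated cold. It fell by 0.44 ± 0.13 and by 0.48 ± 0.13 (limma adjusted p = 0.0158 and 0.0146). Under quantile normalization neither call held (0.271 and 0.0646), without control replicate 3 neither held (0.0558 and 0.0538), and neither held with the floral covariate (0.0893 and 0.0583). The first was also lost under median-of-ratios scaling (0.0835). ATG18B had another pattern. It stood at 4.55, 5.23 and 5.45 FPKM in control, at 6.34, 5.54 and 4.98 FPKM in cold once and at 3.47, 2.90 and 4.01 FPKM in repeated cold. Cold once overlapped control and was not called lower (0.12 ± 0.13, adjusted p = 0.455). It was called higher under quantile normalization (adjusted p = 0.0251). Every repeated-cold library lay below the libraries of both other groups, and ATG18B fell by 0.45 ± 0.13 against control (adjusted p = 0.0222). That call was lost without control replicate 2 (0.0616), control replicate 3 (0.0791) or repeated cold replicate 2 (0.0552) and under quantile normalization (0.0603).

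ATG9, the membrane protein that travels in vesicles to the growing autophagosome, stood at 9.30, 6.33 and 8.63 FPKM in control, at 5.43, 4.66 and 5.37 FPKM in cold once and at 6.73, 5.07 and 7.15 FPKM in repeated cold. It fell by 0.55 ± 0.16 in cold once (limma adjusted p = 0.0169). The call was lost without control replicate 1 (0.0668), control replicate 3 (0.0603) or cold once replicate 2 (0.0557) and under quantile normalization (0.0988). The repeated-cold difference of ATG9 was -0.31 ± 0.16 (limma adjusted p = 0.153), called lower without control replicate 2 (0.0461). ATG18G stood at 17.2, 13.4 and 16.03 FPKM in control, at 11.2, 11.9 and 9.71 FPKM in cold once and at 14.4, 10.1 and 12.7 FPKM in repeated cold. It fell by 0.47 ± 0.15 in cold once (adjusted p = 0.0236), a call lost without control replicate 1 (0.0851), control replicate 3 (0.0715) or cold once replicate 3 (0.0868), under median-of-ratios scaling (0.0853) and under quantile normalization (0.101). The repeated-cold difference of ATG18G was -0.31 ± 0.15 (limma adjusted p = 0.124), called lower with the floral covariate (0.0453). Genes on the other strand overlap ATG9 by 184 bases and ATG18G by 341 bases. ATG2, the lipid transfer protein (AT3G19190), was not called, but was called lower in cold once with the floral covariate (limma adjusted p = 0.0272) and without control replicate 2 (0.0495). It stood at 10.4, 6.65 and 9.33 FPKM in control, at 6.80, 5.06 and 6.64 FPKM in cold once and at 11.97, 6.67 and 8.54 FPKM in repeated cold. ATG18D (2.14 to 3.32 FPKM over all libraries), ATG18F (7.65 to 14.1) and ATG18H (5.12 to 7.77) were not called in either comparison.

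In the conjugation pathway 6 of 9 genes fell in cold once and 4 of 9 in repeated cold, against 33.6% and 24.9% of all genes tested. Without repeated cold replicate 2 the counts were 6 and 5. ATG3, the enzyme that passes ATG8 to the lipid, stood at 29.9, 29.5 and 30.04 FPKM in control, at 15.1, 16.7 and 15.3 FPKM in cold once and at 21.3, 18.7 and 18.9 FPKM in repeated cold (chromosome 5, 24733785 to 24736876, minus strand). Its groups did not overlap, and it fell by 0.88 ± 0.09 (limma adjusted p = 6.54e-05) and by 0.58 ± 0.09 (adjusted p = 0.00101). ATG7, which activates both ATG8 and ATG12 and hands ATG8 to ATG3, was not called. It stood at 7.12, 5.04 and 7.44 FPKM in control, at 6.17, 4.67 and 5.32 FPKM in cold once and at 7.61, 4.48 and 5.65 FPKM in repeated cold, differences of -0.23 ± 0.19 and -0.13 ± 0.19.

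ATG12A, the second ubiquitin-like protein of the pathway, stood at 13.2, 16.2 and 15.2 FPKM in control, at 8.40, 7.45 and 7.80 FPKM in cold once and at 10.6, 13.7 and 7.75 FPKM in repeated cold. It fell by 0.83 ± 0.17 in cold once (limma adjusted p = 0.00342). Repeated cold overlapped control through replicate 2 and missed the threshold (-0.47 ± 0.17, adjusted p = 0.0595). Without that library ATG12A was called lower (adjusted p = 0.00924). Its close copy ATG12B was at 2.71 to 4.36 FPKM in control, 2.39 to 3.49 in cold once and 2.32 to 4.23 in repeated cold and was not called. ATG10, the enzyme that joins ATG12 to ATG5, stood at 5.49, 6.61 and 5.19 FPKM in control, at 3.55, 2.66 and 2.84 FPKM in cold once and at 3.99, 4.21 and 3.17 FPKM in repeated cold. It fell by 0.75 ± 0.14 (adjusted p = 0.0017) and by 0.50 ± 0.14 (adjusted p = 0.0185). The second call was lost without control replicate 2 (0.0655) or repeated cold replicate 3 (0.0629) and under median-of-ratios scaling (0.0552), quantile normalization (0.0823) and the floral covariate (0.0542).

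ATG5, to which ATG12 is joined, had about the same level in all groups. It stood at 7.44, 8.34 and 7.97 FPKM in control, at 7.71, 7.26 and 8.31 FPKM in cold once and at 8.11, 9.04 and 7.27 FPKM in repeated cold, differences of -0.03 ± 0.10 and 0.03 ± 0.10. It overlaps AT5G17280 on the other strand by 597 bases, and whether the counting used strand is not stated. ATG16, which binds the joined ATG12 and ATG5, stood at 9.36, 9.15 and 8.70 FPKM in control, at 6.09, 5.22 and 5.54 FPKM in cold once and at 6.70, 6.48 and 6.24 FPKM in repeated cold, and fell by 0.61 ± 0.09 and by 0.43 ± 0.09 (limma adjusted p = 0.000581 and 0.00548). Of the proteases that process ATG8, ATG4A stood at 9.11, 10.1 and 9.15 FPKM in control, at 6.70, 6.33 and 6.17 FPKM in cold once and at 7.03, 6.58 and 6.35 FPKM in repeated cold. It fell by 0.50 ± 0.09 and by 0.45 ± 0.09 (adjusted p = 0.00165 and 0.00423). Its gene model overlaps that of AT2G44130 on the other strand by 1445 bases. ATG4B stood at 10.1, 10.99 and 10.1 FPKM in control, at 6.95, 7.60 and 8.43 FPKM in cold once and at 10.1, 9.70 and 9.36 FPKM in repeated cold. It fell by 0.40 ± 0.10 in cold once (adjusted p = 0.00708), a call lost under median-of-ratios scaling (0.073) and quantile normalization (0.156). In repeated cold its difference was -0.09 ± 0.10. ATG4B overlaps other genes on the opposite strand by 160 and 203 bases.

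**Figure D2:**
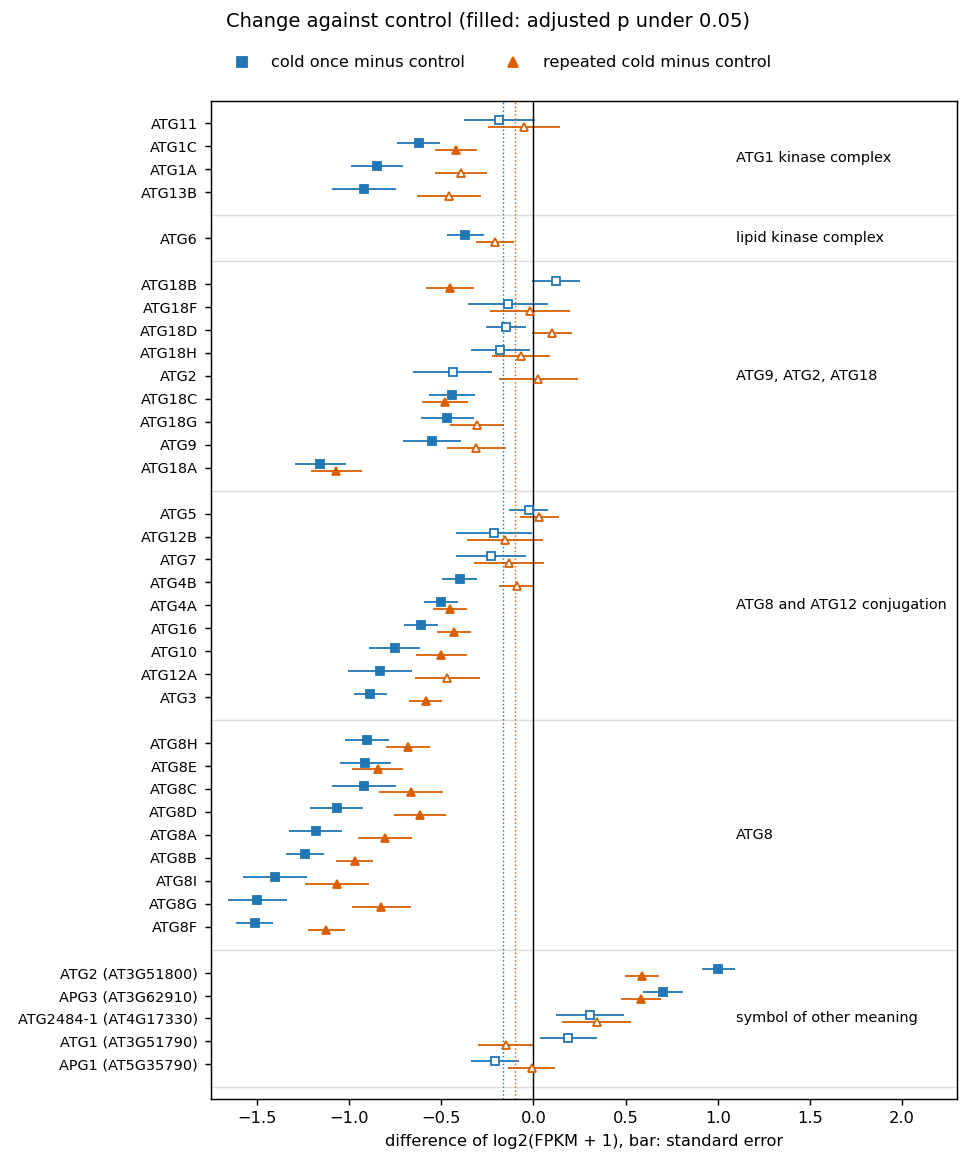
Difference of log2(FPKM + 1) between each cold group and control for the 37 members tested, with the standard error; filled symbols have an adjusted p under 0.05 and dotted lines mark the median of all genes tested, -0.16 and -0.10. The ATG8 genes lie between -1.51 and -0.90 in cold once.

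Over the 32 autophagy members tested, 23 fell in cold once and 17 in repeated cold, and none was called higher. Of all genes tested, 33.6% and 24.9% were called lower, and 18.7% and 14.6% higher. Without repeated cold replicate 2 the counts of members called lower were again 23 and 17, with ATG12A gained and ATG18B lost in repeated cold. The median change of the 32 was -0.62 in cold once and -0.45 in repeated cold. In 24 of them every cold-once library lay below every control library, against 40.6% of all genes tested. In repeated cold this held for 19, against 31.7%. The comparisons share the control libraries. Median-of-ratios scaling, which moves the median of all genes from -0.16 to -0.01 in cold once and from -0.10 to 0.01 in repeated cold, left 19 and 16 of the 32 called lower. It also moved the split over all genes in cold once from 3314 higher and 5964 lower to 4505 and 4453, and in repeated cold from 2592 and 4421 to 3485 and 3333. Under quantile normalization 18 and 14 of the 32 were called lower, and 1 (ATG18B) was called higher in cold once. ATG5, ATG7, ATG11, ATG12B, ATG2, ATG18D, ATG18F and ATG18H were called in neither comparison.

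Repeated cold was set against cold once to ask whether 4 cycles gave another level than 1. No autophagy member was called in limma (over all genes tested 1.27% were, 0.738% higher and 0.536% lower), and none was without repeated cold replicate 2. An unadjusted p under 0.05 was reached by 11 of 32 (34.4%), of which 10 were higher in repeated cold (31.2%), against 19.8% and 12.3% of all genes tested. In 10 of 32 every repeated-cold library lay above every cold-once library, against 13.9% of all genes tested. These were ATG1A, ATG13B, ATG18D, ATG3, ATG4B, ATG16, ATG8B, ATG8F, ATG8G and ATG8H. The largest differences were 0.67 ± 0.16 for ATG8G (adjusted p = 0.0731), 0.46 ± 0.21 for ATG2, 0.46 ± 0.17 for ATG13B, 0.45 ± 0.14 for ATG1A and 0.45 ± 0.14 for ATG8D. ATG18B was the 1 autophagy member with every repeated-cold library below every cold-once library, against 9.92% of all genes tested, with a difference of -0.57 ± 0.13 (adjusted p = 0.0668). It was called lower under median-of-ratios scaling (0.0437) and quantile normalization (0.0343). Over all genes the calls split into 131 higher and 95 lower, and into 126 and 227 under median-of-ratios scaling.

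Spread within groups varied with gene length. Across the 37 members tested, the deviation of control replicate 2 from its group mean had a Spearman correlation of -0.74 with gene model length, and that of repeated cold replicate 2 one of -0.77. Over all genes tested the values were -0.47 and -0.56, and in cold once replicate 2 the members gave -0.13. These are correlations across genes of 1 library, which share its preparation and depth. Long members with and without a call were at their group's lowest value in replicate 2 of control and of repeated cold. Those with a call included ATG1A, ATG13B, ATG6, ATG9 and ATG18G, and also ATG1C and ATG18A, which were called lower in both comparisons with control. Those without one included ATG11, ATG2, ATG7, ATG18D, ATG18F and ATG18H. The part of gene length in the members' calls was not tested.

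**Figure D3:**
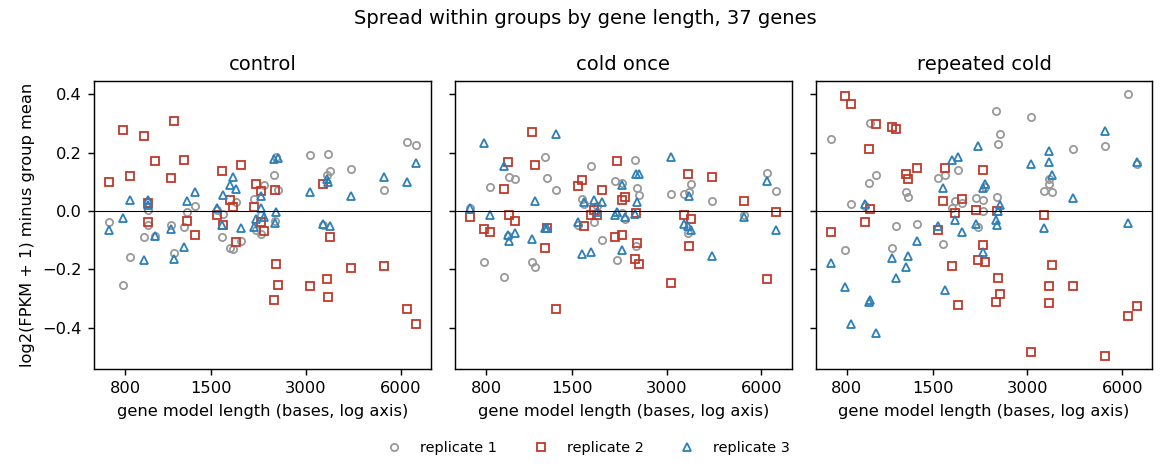
Deviation of each library from its group mean of log2(FPKM + 1), against gene model length in bases (log axis), for the 37 members tested, 1 panel per group. In control and repeated cold the squares of replicate 2 run from above 0 for short genes to below 0 for long genes, as in the Spearman correlations of -0.74 and -0.77.

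The 5 members whose symbols stand for something else gave another picture, with 2 higher, none lower and 3 not called in each comparison with control, also without repeated cold replicate 2. Among all genes tested, 18.7% were called higher in cold once and 14.6% in repeated cold. AT3G51800, listed as ATG2 like the autophagy gene, encodes EBP1, a protein that binds RNA and promotes growth in plants. It stood at 52.6, 58.3 and 62.7 FPKM in control, at 114, 117 and 120 FPKM in cold once and at 89.6, 87.0 and 85.6 FPKM in repeated cold, and its 3 groups did not overlap. It rose by 1.00 ± 0.09 (limma adjusted p = 3.55e-05) and by 0.59 ± 0.09 (adjusted p = 0.00106). APG3, for albino and pale green, encodes a chloroplast release factor of translation. It stood at 19.7, 23.2 and 20.3 FPKM in control, at 35.9, 37.7 and 31.4 FPKM in cold once and at 29.5, 32.8 and 33.9 FPKM in repeated cold, and rose by 0.70 ± 0.11 and by 0.58 ± 0.11 (adjusted p = 0.000665 and 0.00284). The others were not called. APG1, here glucose-6-phosphate dehydrogenase 1 of the pentose phosphate pathway, was at 52.7 to 79.7 FPKM over all libraries. AT3G51790, listed as ATG1 and annotated with cytochrome c biogenesis, was at 5.30 to 9.28 FPKM. ATG2484-1, an Agenet-domain gene, was at 16.7 to 32.0 FPKM.

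Genes around the core pathway were read from lists. Of 10 receptors and adaptors tested, 6 fell in cold once and 5 in repeated cold, and 7 and 6 without repeated cold replicate 2, against 33.6% and 24.9% of all genes tested. NBR1, the receptor that carries ubiquitinated cargo to ATG8, stood at 111, 103 and 118 FPKM in control, at 48.9, 44.0 and 46.8 FPKM in cold once and at 70.3, 44.8 and 56.6 FPKM in repeated cold. It fell by 1.23 ± 0.15 and by 0.96 ± 0.15 (limma adjusted p = 0.000186 and 0.00114). The ATG8-interacting protein ATI2 stood at 43.6, 48.7 and 41.7 FPKM in control, at 16.1, 13.6 and 13.5 FPKM in cold once and at 26.7, 27.5 and 20.4 FPKM in repeated cold. It fell by 1.57 ± 0.13 in cold once and was higher in repeated cold than in cold once by 0.74 ± 0.13 (adjusted p = 0.0366). This last call was lost without the filter (0.0557) and in 6 of the 9 fits that left out a library, with 0.144 as the highest adjusted p, without cold once replicate 3. Its relative ATI1 fell by 0.93 ± 0.16 and by 0.87 ± 0.16, and the vesicle fusion protein VTI12 by 1.18 ± 0.16 and by 0.79 ± 0.16.

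All 5 vacuolar proteases tested fell in both comparisons, against 33.6% and 24.9% of all genes tested. All 5 also fell without repeated cold replicate 2. In repeated cold 4 of 5 fell without control replicate 1, control replicate 3 or repeated cold replicate 3. The same held with the floral covariate, where the lost call had a limma adjusted p of 0.106. Between the cold groups 3 of the 5 (GAMMA-VPE, CATHB3 and AALP) were higher in repeated cold, against 0.738% of all genes tested. This count was 0 without cold once replicate 3, where the adjusted p in limma were 0.128, 0.0668 and 0.128. It was 1 (CATHB3) without control replicate 1, control replicate 3, cold once replicate 2, repeated cold replicate 1 or repeated cold replicate 2 and without the filter, and 2 without cold once replicate 1 or repeated cold replicate 3. GAMMA-VPE, a vacuolar processing enzyme, stood at 359, 359 and 297 FPKM in control, at 50.5, 37.1 and 36.4 FPKM in cold once and at 72.4, 75.2 and 71.6 FPKM in repeated cold. It fell by 3.01 ± 0.14 and by 2.19 ± 0.14 (limma adjusted p = 9.75e-07 and 9.41e-06). CATHB3, a cathepsin B-like protease, stood at 125, 119 and 123 FPKM in control, at 24.6, 18.6 and 20.1 FPKM in cold once and at 58.6, 52.3 and 40.5 FPKM in repeated cold. It was higher in repeated cold than in cold once by 1.21 ± 0.15 (adjusted p = 0.0124). The aleurain-like protease AALP fell by 1.53 ± 0.12 and by 0.86 ± 0.12, and RD21A by 0.93 ± 0.12 and by 0.48 ± 0.12, the second call being lost under median-of-ratios scaling (limma adjusted p = 0.0658).

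Of 10 genes of the TOR and SnRK1 kinases, which hold back and promote autophagy in turn, 3 fell and 1 rose in each comparison. These counts are near the shares of all genes tested, which were 33.6% lower and 18.7% higher in cold once and 24.9% and 14.6% in repeated cold. Without repeated cold replicate 2 the counts were 4 and 2 in cold once and 3 and 1 in repeated cold. KIN10, the catalytic subunit of SnRK1, stood at 28.8, 25.9 and 25.3 FPKM in control, at 15.5, 15.9 and 16.9 FPKM in cold once and at 17.4, 16.5 and 16.7 FPKM in repeated cold, and fell by 0.69 ± 0.09 and by 0.63 ± 0.09 (limma adjusted p = 0.000238 and 0.000646). The SnRK1 subunit gene AKINBETA1 fell by 1.43 ± 0.23 and by 1.38 ± 0.23, while KINB3 rose by 0.37 ± 0.08 and by 0.25 ± 0.08. The second KINB3 call was lost in each of the 9 fits that left out a library, the highest adjusted p being 0.132 without control replicate 1. LST8-1 of the TOR complex fell by 0.26 ± 0.09 and by 0.36 ± 0.09, and both calls were lost under median-of-ratios scaling (limma adjusted p = 0.517 and 0.0851). The first was also lost in 6 of the 9 fits without a library, with 0.108 as the highest adjusted p, without control replicate 2.

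Of 6 senescence and starvation genes tested, 4 fell in each comparison and none was called higher. The count of 4 also held without repeated cold replicate 2. Of all genes tested, 33.6% and 24.9% were called lower. The 4 were not the same genes in both, as WRKY53 was called in cold once only. DIN1, a gene known to rise in the dark, stood at 52.0, 90.5 and 46.0 FPKM in control and at 1.59 to 3.79 FPKM in the 6 libraries of the cold groups. ORE1 (NAC92), a regulator of leaf senescence, stood at 62.1, 50.1 and 49.4 FPKM in control, at 3.59, 3.76 and 3.63 FPKM in cold once and at 11.2, 10.4 and 11.7 FPKM in repeated cold. Its changes on the log2(FPKM + 1) scale were -3.55 ± 0.11 and -2.18 ± 0.11 (limma adjusted p = 1.01e-07 and 2.43e-06). ASN1 (DIN6) fell by 2.32 ± 0.46 and by 2.43 ± 0.46. WRKY53 fell by 2.32 ± 0.36 in cold once, and its repeated-cold difference was -0.88 ± 0.36 (adjusted p = 0.0814). Among 4 tested regulators of ATG genes, HY5, known to hold back ATG transcription in the light together with HDA9, was the 1 called, also without repeated cold replicate 2. Calls in either direction reached 52.3% and 39.5% of all genes tested. HY5 stood at 3.85, 7.19 and 5.76 FPKM in control, at 12.2, 13.3 and 12.1 FPKM in cold once and at 11.4, 16.8 and 11.3 FPKM in repeated cold. It rose by 1.07 ± 0.20 and by 1.12 ± 0.20 (adjusted p = 0.00205 and 0.00251). HDA9 differed by 0.01 ± 0.11 and by 0.09 ± 0.11, and the clock genes LUX and TOC1 were not called, though both were higher in cold once under quantile normalization (0.039 and 0.0498).

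**Figure D4:**
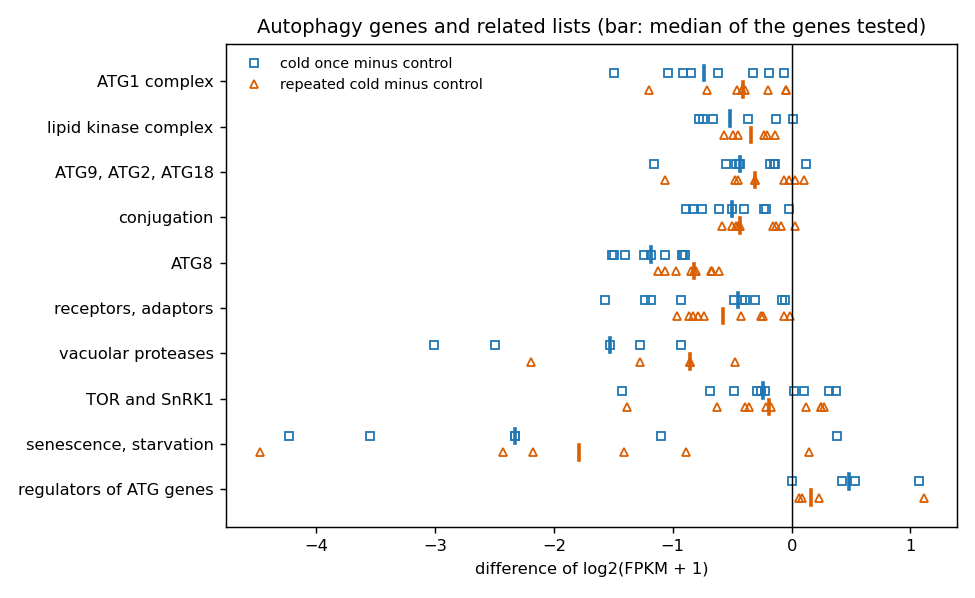
Difference of log2(FPKM + 1) between each cold group and control for every tested gene of the autophagy groups and of 5 related lists; each symbol is a gene and each bar the median of its list. The ATG8 genes lie below 0 throughout in both comparisons, with medians of -1.18 and -0.82, and so do the vacuolar proteases, with medians of -1.53 and -0.86.

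Marker lists of other organs moved as follows. Of 7 floral markers, 1 (SEP3) fell in cold once and none was called in repeated cold (limma, 1 with an unadjusted p under 0.05). Of all genes tested, 33.6% and 24.9% were called lower. Without repeated cold replicate 2 the floral marker counts were 4 and 6, with limma adjusted p from 0.00455 to 0.035 for the 6. Without control replicate 2, control replicate 3, cold once replicate 1 or cold once replicate 3 the cold-once count was 0, and without control replicate 1 the repeated-cold count was 1. With the floral marker score as covariate 23 and 18 autophagy members were called lower. Of 6 leaf markers, 4 rose and 1 fell in both comparisons, also without repeated cold replicate 2. Of all genes tested, 18.7% and 14.6% were called higher. In cold once the lower call among the leaf markers was lost in each of the 6 fits that left out a control or cold-once library. Root markers summed to 25.4 to 62.9 FPKM in control, 18.7 to 63.6 in cold once and 10.8 to 39.1 in repeated cold. Their part in the changes of the autophagy genes, apart from that of the floral score, was not tested.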

How the data were processed

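FPKM values were deposited by the authors as 1 table for 25320 genes and 9 libraries, with no log transformation. The submitters' processing notes list TopHat, Cufflinks and Cuffdiff and give neither versions nor roles. Libraries were made with a SMARTER mRNA-Seq kit from 0.5 µg of Qiagen RNeasy RNA, per the labels' protocols. Strandedness and genome build are not given in the sources used here. Gene starts and ends equal TAIR10.1 for 25094 of 25099 loci found there (99.98%) and for all 38 members. Low values lie on steps of whole reads (25316 genes, tolerance 0.01 read), which gave the library sizes.

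Values were analysed as log2(FPKM + 1) without further scaling. The added 1 makes differences smaller than the log2 ratio of FPKM, most of all for genes at low FPKM. Genes at FPKM 1 or more in at least 3 of 9 libraries were kept (17740). A model with 1 mean per group over all libraries was fitted with limma 3.58.1 in R 4.3.3 (lmFit, eBayes with trend, prior degrees of freedom 3.21), after being tested on simulated data. The 3 pairs of groups were compared with p-values adjusted by Benjamini-Hochberg over all genes kept, with 0.05 as the threshold. Log2 differences carry the model's standard error. Counts of reads limit precision: near FPKM 1 a gene had a median of 32 reads.

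The members and the 14 gene lists (102 genes, 100 in the table) were chosen with earlier results of these data known. Every member is reported. Members called in a comparison with control are given per library, and at most 4 genes per other list are named, those with the smallest p of limma's F-test, the 9 partners read by locus being taken as 1 list. TGA9, which was not tested, is named besides. LST8-2 and EXPA7 were not analysed here. Promoters of 250 bases, coding ends and overlaps came from RefSeq on TAIR10.1, read with Python 3.11.15 (pandas 2.3.3, numpy 2.4.6, scipy 1.17.1), and figures were drawn with matplotlib 3.10.9. Alternatives were pseudocounts of 0.1 and 5, no filter, a minimum FPKM of 5, median-of-ratios scaling, quantile normalization, a replicate block, a floral marker score as covariate, and leaving out each library.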

Additional observations from a re-analysis of the deposited data

How the results depend on the processing

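The 2 members called higher in cold once (AT3G51800 and APG3) became 4 under quantile normalization, with ATG18B and AT3G51790 added. In repeated cold against cold once, the 226 calls over all genes became 112 without the filter, 353 under median-of-ratios scaling and 704 with the replicate block, and ranged from 17 (without cold once replicate 3) to 208 when 1 library was left out. They were 101 without control replicate 1, 84 without control replicate 3, 123 without cold once replicate 2, 39 without repeated cold replicate 1, 131 without repeated cold replicate 2 and 112 without repeated cold replicate 3. Members called there, 0 in the reported fit, were 2 lower under median-of-ratios scaling (ATG18B and AT3G51800), 1 lower under quantile normalization (ATG18B), and 2 higher (ATG1A and ATG8G) and 1 lower (AT3G51800) with the replicate block; the causes were not tested. No called change reversed. With 1 library left out, members called lower numbered 20 to 24 in cold once and 15 to 19 in repeated cold, and those higher 2 to 3 and 2. Per member and alternative, 18 calls were lost and 7 gained in cold once and 15 and 15 in repeated cold.

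Samples of different groups share only a replicate number, which the labels tie to nothing. The correlation of their deviations ran from -0.11 to 0.46 over the same-numbered pairs and from -0.44 to 0.20 over the pairs with different numbers. Between control and repeated cold it was 0.37, 0.46 and 0.04 for replicates 1, 2 and 3. For replicates 1 and 2 crossed between these groups it was -0.44 and -0.37. The reported fit holds no term for the replicate number, and what same-numbered libraries share was not tested. With the replicate block 24 members were called lower in cold once and 20 in repeated cold, with ATG2 gained in the first (adjusted p = 0.0109) and ATG1A, ATG13B and ATG9 in the second (0.00971, 0.0157 and 0.0369). In the lists, repeated-cold calls of the ATG1 complex rose from 1 to 3 and floral marker calls from 1 to 4 in cold once and from 0 to 2 in repeated cold with it. Depth limits the low members most: ATG12B rested on 38 to 69 reads and ATG18E on 0 to 8.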
